A study of Mus musculus with 3 samples.

Results

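The cytosolic ribosomal protein genes were studied across the immune cells of the mouse aorta as a group of 86 genes, out of 32285 in the count tables. They were the genes whose symbol starts with Rps or Rpl and a digit, together with Rpsa, Rplp0, Rplp1 and Rplp2. The 5 rows named as pseudogenes and the 10 kinases whose symbols start with Rps6k were left out. The rule gave 34 Rps genes, of the small (40S) subunit, and 52 Rpl genes, of the large (60S) subunit. It took in Rps19bp1, a protein that binds Rps19 and is not part of the ribosome, and it left out Fau and Rack1, whose products are. Rpl10l had 0 UMIs in the called barcodes, and the other 85 members passed the filter on low counts, with 12866 genes in all.

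A ribosome holds a single copy of nearly every one of these proteins, the acidic stalk proteins Rplp1 and Rplp2 being the exception. Their mRNAs are among the most abundant in most cells, and many begin with a 5′ terminal oligopyrimidine (TOP) stretch, a C followed by further C and T bases, through which mTOR signalling controls their translation. Lymphocytes are known for a high share of these mRNAs, and mature neutrophils, which make little new protein, for a low one. A few members have a less used second copy, such as Rps27l beside Rps27 and Rpl3l beside Rpl3, the latter known mainly from skeletal muscle and heart.

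The cells were live, Hoechst-positive CD45+ cells sorted from digested whole aortas, adventitia included, and read with 10x Chromium 3′ chemistry. All mice were ApoE-/- on C57BL/6J, a strain that lacks apolipoprotein E and develops atherosclerosis. The control mice were given nothing that the labels name, the HHcy mice received Hcy (homocysteine) in their drinking water at 1.8 g/L for 4 weeks, and the WD mice a western diet for 4 weeks. The labels give neither the number of mice behind a library nor their age. Each group was 1 library, so no treatment could be tested. Tests were made between cell classes over the 3 libraries, and their p-values measure the spread of a class difference over libraries of different treatments.

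The libraries held 7512 to 9753 barcodes and 66789257 to 105180370 UMIs (unique molecular identifiers, each standing for 1 captured mRNA end). After filters, 5288 to 6388 cells per library were used, of which 90.7% to 93.5% had a UMI of Ptprc, the gene of CD45. Apoe was read at 16.3 UMIs per 1000000 (CPM) in control and 19.3 in WD, but at 374 in the library labelled HHcy. The library labelled HHcy thus stands apart on the shared ApoE-/- label, although a 3′ count can come from outside a deleted part, and results are also given without it. Pairs of libraries shared 20 to 24 barcodes. Cells were clustered with the ribosomal protein genes left out, so the classes were made without them. From their markers the classes were B-like, T-like, macrophage/monocyte-like (macrophage-like for short), neutrophil-like and conventional dendritic-like, together 4737 to 5747 cells per library. Wherever 3 values follow each other, they are in the order control, library labelled HHcy, WD.

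Start site sequences are printed for the members on which the results turn. Rpl12 had the largest called rise in the pool in lymphocytes against macrophages, and Rpl10 the largest called fall outside the low members Rpl3l, Rps27l, Rpl7l1 and Rps19bp1. Rps9 was the widely expressed member furthest above the others in neutrophils. Rps12 was furthest below the others in T-like against B-like cells among the members called there. Rps27l and Rpl3l are minor copies, high in macrophage-like cells. The sequences come from RefSeq on mm10 (GRCm38.p6), run 5′ to 3′ along the transcribed strand from 40 bases before the annotated start through 20 bases from it on, and show in capitals a C followed by 5 or more C or T bases within 20 bases of the start.
Rpl12, chr2:32961672-32961731, plus strand: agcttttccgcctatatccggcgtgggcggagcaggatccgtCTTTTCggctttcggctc
Rps9, chr7:3704001-3704060, plus strand: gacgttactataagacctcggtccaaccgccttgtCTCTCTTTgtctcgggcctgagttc
Rpl10, chrX:74270776-74270835, plus strand: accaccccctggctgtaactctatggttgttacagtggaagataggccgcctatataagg
Rps12, chr10:23787190-23787249, minus strand: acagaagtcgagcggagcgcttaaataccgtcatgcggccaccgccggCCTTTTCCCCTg
Rps27l, chr9:66946046-66946105, plus strand: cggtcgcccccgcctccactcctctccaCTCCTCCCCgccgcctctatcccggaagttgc
Rpl3l, chr17:24727786-24727845, plus strand: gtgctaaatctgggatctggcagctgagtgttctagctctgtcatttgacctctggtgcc
Rpl12, Rps9, Rps12 and Rps27l carried such a run, and Rpl10 and Rpl3l did not. The run began 2 bases after the annotated start in Rpl12 and 8 after it in Rps12. It began 5 bases before the start in Rps9. In Rps27l the run of 9 bases began 12 before the start and so lay wholly outside the annotated mRNA. Whether any of these mRNAs begins with a TOP stretch was not tested. Rps27l and Rpl3l have a second annotated start each, which is not printed. Of the 66 members with a promoter entry, 43 (65.2%) had a run within 20 bases of a start, against 36.0% of all 27025 genes with an entry. The letters CCGGAA, searched on both strands of the 250 bases before the start, were present for 39.4% of those members and for 13.6% of all genes. TATAAA in the 40 bases before the start, on the transcribed strand, was present for 1.52% of the members and 2.78% of all genes. CACGTG, which reads alike on both strands, was present in the 250 bases before the start for 7.58% and 6.86%. These are matches of letters to annotated starts.

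Ribosomal protein mRNA took up the largest part of the transcriptome in B-like cells and the smallest in neutrophil-like cells. In B-like cells the 86 genes gave 33.6%, 33.8% and 31.8% of all UMIs, a mean of 33.1% ± 1.07 (SD, n = 3 libraries). In T-like cells they gave 23.5%, 27.4% and 22.0%, a mean of 24.3% ± 2.81 (SD, n = 3). Conventional dendritic-like cells were at 21.8%, 21.3% and 19.9%, a mean of 20.99% ± 1.02 (SD, n = 3). Macrophage-like cells were at 15.9%, 16.1% and 15.2%, a mean of 15.7% ± 0.49 (SD, n = 3). Neutrophil-like cells were at 4.53%, 3.89% and 3.97%, a mean of 4.13% ± 0.35 (SD, n = 3). The library ranges of the 5 classes did not overlap, and T-like and conventional dendritic-like cells were the closest neighbours, with 22.0% in the lowest T-like library beside 21.8% in the highest dendritic-like one. Without the library labelled HHcy the means were 32.7% ± 1.26, 22.7% ± 1.06, 20.8% ± 1.39, 15.6% ± 0.54 and 4.25% ± 0.40 in the same order of classes (SD, n = 2). The widest exact Clopper-Pearson interval of any of these shares, in T-like cells of WD, ran from 21.9% to 22.1% and covers counting error only. All of these are shares of summed UMIs. In the median cell the share was 19.88%, 24.06% and 19.66% in the T-like class. In the conventional dendritic-like class it was 21.17%, 20.46% and 19.74%, so by this measure the 2 classes overlapped.

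**Figure D1:**
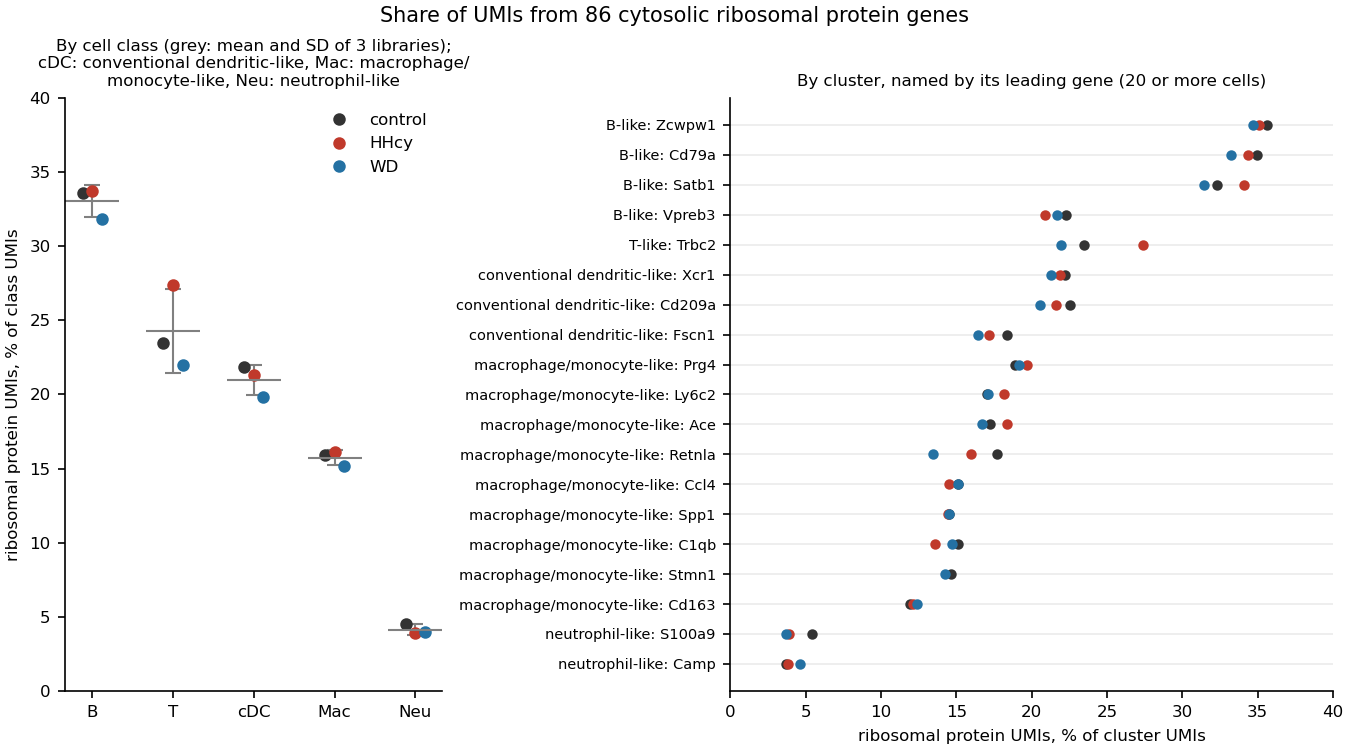
The left panel plots the percent of a class's UMIs that came from the 86 genes, 1 point per library, with the mean and SD of the 3 libraries in grey. The right panel plots the same percent for each cluster of 20 or more cells, named by its leading gene. B-like clusters lie at the top apart from the one led by Vpreb3, at 20.9% to 22.3%, and both neutrophil-like clusters lie under 6%.

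Per cell, the median B-like cell held 2356, 2161.5 and 1999 ribosomal protein UMIs. The median macrophage-like cell held 1136, 1241 and 1325, out of a larger number of other UMIs. The median neutrophil-like cell held only 138, 164.5 and 115, from 56, 58 and 50 of the 86 members, where the median cell of each other class had UMIs of 79 to 82 members. UMIs of all other genes in the median neutrophil-like cell were 4402, 4735.5 and 3871.5, close to the 5015, 4266.5 and 4647 of B-like cells, so the ribosomal protein UMIs differed far more between these classes than the other UMIs did. In neutrophil-like cells the 12 neutrophil markers alone summed to 199771 to 241595 CPM. Deeper cells had a higher share within a class, with Spearman's rho over cells from 0.29 to 0.62 outside neutrophils and from −0.23 to 0.02 in them (149 to 3590 and 194 to 406 cells, which share a library).

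Clusters within a class differed too. Among B-like clusters the one led by Zcwpw1 stood at 35.6%, 35.1% and 34.7%, and the one led by Vpreb3, a gene of immature B cells, at 22.3%, 20.9% and 21.7%. The Vpreb3-led cluster was below every other B-like cluster in each library. Among macrophage-like clusters the one led by Cd163, a haemoglobin scavenger receptor of resident macrophages, was lowest in each library by summed UMIs. It was at 11.9%, 12.1% and 12.4%. The cluster led by Prg4 had 18.9%, 19.7% and 19.1%, and the monocyte clusters led by Ace and Ly6c2 had 16.7% to 18.3%. Among dendritic-like clusters, the one led by Fscn1, a gene of mature dendritic cells, was lowest in each library, at 18.3%, 17.2% and 16.5%. The neutrophil-like cluster led by S100a9 had 5.42%, 3.91% and 3.67%. The one led by Camp, a granule gene of younger neutrophils, had 3.70%, 3.81% and 4.601%. These cluster values are shares of summed UMIs. In the median cell the macrophage-like cluster led by Retnla was below the Cd163-led one in the library labelled HHcy and in WD. It had 11.2% and 7.56% there, beside 11.7% and 12.2%.

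The T-like class was 1 cluster that also held NK markers, at a sum of 2499 to 4543 CPM beside 4268 to 5261 for T markers. Its cells with more T than NK markers were at 24.5%, 28.1% and 22.2%, and those with more NK than T markers, 17 to 27 cells per library, at 19.8%, 20.5% and 21.1%. Plasma cell markers in this class summed to 899, 2696 and 172 CPM, and erythroid markers to as much as 2293, in control. Their part in the T-like values was not tested. Marker genes of B cells in neutrophil-like cells summed to 170, 133 and 79.8 CPM, against 7710 to 8977 in B-like cells. Barcodes that carried markers of 2 lineages had been left out as doublets, 10.4%, 21.7% and 21.2% of those past the filters. With them kept, the neutrophil-like share was 12.04% and the macrophage-like share 17.4%.

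To test single genes, UMIs were summed per class and library, and the 15 sums were fitted with edgeR's quasi-likelihood test with the library as a block. Folds are first given relative to all genes (TMM scaling), for the mean of B-like and T-like cells (lymphocytes) against macrophage-like and neutrophil-like cells. Nearly the whole set moved together. Against macrophage-like cells, 79 of 85 members were higher in lymphocytes and 2 were lower, Rps27l and Rpl3l, where 64.0% of all 12866 genes were called, 32.8% as higher. The members' median log2 fold change was 0.88, beside 0.07 over all genes. The 4 members not called were Rpl7l1, Rps19bp1, Rpl39l and Rpl10. Against neutrophil-like cells, 82 members were higher and 1 was lower (Rpl3l), where 61.5% of genes were called, 33.4% as higher. The median here was 2.15, beside 0.24 over all genes, and it went down to 0.89 with doublets kept and to 1.43 with cells classed singly from their markers. In neutrophil-like against macrophage-like cells 82 were lower and 1 higher, where 56.8% were called, 32.1% as lower, and the median was −1.32 beside −0.26, going to −0.29 and −0.76 under the same alternatives. In T-like against B-like cells 81 were lower and 0 higher, where 34.1% were called, 19.0% as lower, and the median was −0.83 beside −0.10. Without the library labelled HHcy the calls were 79 and 2, 82 and 1, 1 and 82, and 0 and 81, each as higher and lower.

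Rpl12, a protein of the stalk base of the large subunit, led both lymphocyte contrasts. Its level in CPM was 3960, 4957 and 4385 in B-like cells and 2983, 4328 and 3208 in T-like cells. It was 1144, 1348 and 1390 in macrophage-like cells and 220, 215 and 233 in neutrophil-like cells. None of these ranges overlapped between lymphocytes and the myeloid classes. On the all-gene scale it was higher in lymphocytes by 1.65 ± 0.13 (log2, SE) than in macrophage-like cells, at an edgeR adjusted p of 5.79e-09, and by 3.47 ± 0.14 than in neutrophil-like cells, at 1.78e-12. The gene lies at chr2:32961559-32965345 on the plus strand and overlaps an annotated gene on each strand. The scale mattered in neutrophils: with library totals in place of TMM factors the median of all genes in lymphocytes against neutrophils went from 0.24 to 0.93 and that of the members from 2.15 to 2.82. In T-like against B-like cells the all-gene median went from −0.10 to 0.29 and the calls to 2 higher and 66 lower.

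**Figure D2:**
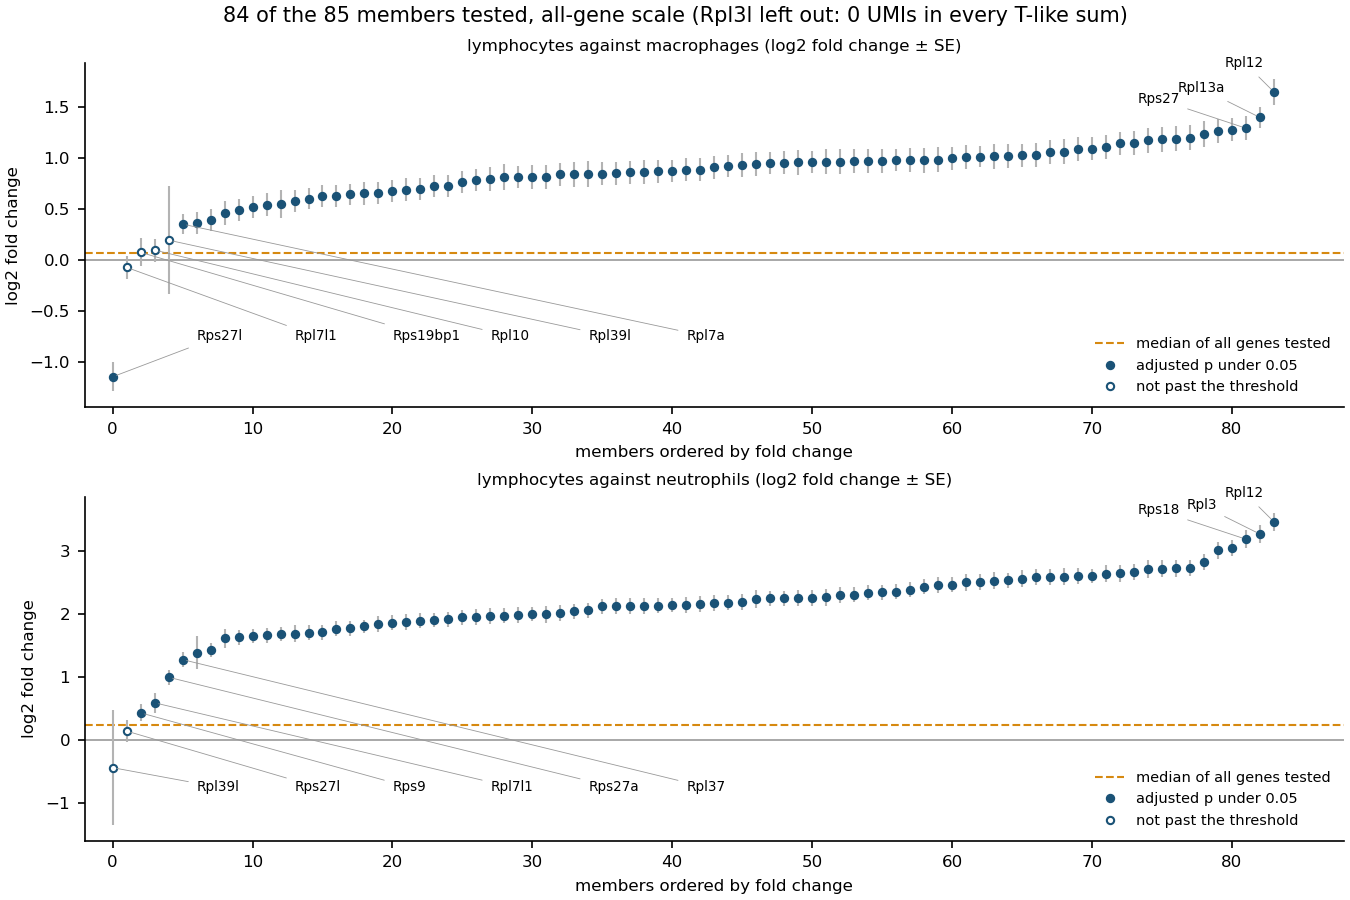
Each panel orders 84 of the 85 tested members by log2 fold change on the all-gene scale (vertical axis, with SE bars) in 1 contrast of cell classes, Rpl3l being left out because every T-like sum had 0 UMIs. Most members lie on the same side of 0 in each panel. The median of all 85 tested members was 0.88 in lymphocytes against macrophage-like cells and 2.15 in lymphocytes against neutrophil-like cells.

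Other genes of the translation machinery were counted from fixed lists, all on the all-gene scale. On it, 32.8% of all genes were called higher and 31.2% lower in lymphocytes than in macrophage-like cells. Against neutrophil-like cells these shares were 33.4% and 28.1%. The medians of all genes were 0.07 and 0.24 in the 2 contrasts. Of 32 other TOP mRNAs, 27 were higher in lymphocytes than in macrophage-like cells and 0 lower, with a median of 0.59, and 31 were higher than in neutrophil-like cells, with a median of 1.77. Among them Npm1, a nucleolar chaperone, was higher by 0.93 ± 0.11 (adjusted p = 1.55e-06) and 2.89 ± 0.13 (6.87e-12). Eef1a1, the elongation factor that delivers aminoacyl-tRNA, was higher by 0.46 ± 0.12 (0.00213) and 2.198 ± 0.13 (1.42e-10). Of 50 ribosome biogenesis genes, 36 and 47 were higher in lymphocytes, 0 lower in either contrast, with medians of 0.59 and 1.93. Ncl, the nucleolar protein nucleolin, was higher by 0.85 ± 0.12 (7.29e-06) and 1.84 ± 0.13 (1.91e-09).

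Mitochondrial ribosomal proteins, which are encoded in the nucleus and serve a separate ribosome, differed less between lymphocytes and macrophage-like cells. Of 78, 19 were higher and 8 lower, where 32.8% of all genes were higher and 31.2% lower. Their median was 0.04 beside 0.07 for all genes. Against neutrophil-like cells 57 were higher and 4 lower, where 33.4% of all genes were higher and 28.1% lower. The median there was 1.03 beside 0.24 for all genes. Of the ribosomal proteins outside the rule, Rack1 was higher in lymphocytes by 0.72 ± 0.11 (adjusted p = 2.13e-05) and 2.54 ± 0.12 (1.21e-11). Fau was higher by 0.39 ± 0.13 (0.0145) than in macrophage-like cells, and against neutrophil-like cells its difference was 0.29 ± 0.13 (0.0595).

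Among 19 tested regulators of ribosomal protein genes and their mRNAs, 8 were higher and 1 lower in lymphocytes than in macrophage-like cells, where 32.8% of all genes were called higher, 31.2% lower and 64.0% in either direction. Myc, a transcription factor that drives ribosome production, was higher by 1.49 ± 0.12 (adjusted p = 1.54e-08), and Eif4ebp1, a translation repressor released by low mTOR activity, was lower, at −1.98 ± 0.23 (1.03e-06). In neutrophil-like against macrophage-like cells 5 of the 19 were higher and 8 lower, where 24.8% of all genes were higher and 32.1% lower. The median of the 19 was −0.38, beside −0.26 for all genes. Furthest up among them was Mxd1, which competes with Myc for its partner Max, at 5.11 ± 0.22 (1.05e-11). Genes of the heat shock and dissociation response moved with the classes as well. Of 20, 0 were higher and 13 lower in lymphocytes than in macrophage-like cells, among them Egr1 at −2.82 ± 0.15 (6.16e-11) and Hspa1a at −2.80 ± 0.19 (9.58e-10), where 31.2% of all genes were lower. In lymphocytes against neutrophil-like cells 4 were higher and 12 lower, where 28.1% of all genes were lower. Their part in the ribosomal protein results was not tested.

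Single genes that depart from the set were sought within the pool, that is, with each sum scaled to its ribosomal protein UMIs, so that a fold is a change in a gene's part of the pool. Of 85 members, 14 were a larger and 22 a smaller part in lymphocytes than in macrophage-like cells, where 74.9% of all genes were called on this scale, 8.39% as higher and 66.5% as lower. Because this scale moves all other genes against the pool, the background shares are not a measure for the members. The counts were 11 and 19 without the library labelled HHcy, and 6 and 14 both without control and without WD.

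Rpl12 led here too, with 1.18%, 1.47% and 1.38% of the pool in B-like and 1.27%, 1.58% and 1.46% in T-like cells. It had 0.72%, 0.84% and 0.92% in macrophage-like cells and 0.89%, 1.00% and 0.98% in conventional dendritic-like cells. Its lowest lymphocyte value lay above its highest myeloid one, and the fold within the pool was 0.75 ± 0.09 (log2, SE; adjusted p = 8.61e-07). Rpl13a, a large subunit protein also known from the GAIT complex that silences inflammatory mRNAs in myeloid cells, followed. It had 1.52%, 1.55% and 1.61% in B-like, 1.75%, 1.82% and 2.13% in T-like and 1.20%, 1.20% and 1.23% in macrophage-like cells, at 0.50 ± 0.09 (8.54e-05). Rps27, Rps20, Rps15a and Rps7, all small subunit proteins, were larger parts by 0.34 to 0.40.

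Rpl10, the large subunit protein that joins last in maturation, was the abundant member furthest the other way. It made up 0.79%, 0.94% and 0.90% of the pool in B-like cells and 0.82%, 0.97% and 0.87% in T-like cells. In macrophage-like cells it made up 1.35%, 1.67% and 1.62%, and in conventional dendritic-like cells 1.34%, 1.56% and 1.55%. Lymphocyte and macrophage ranges did not overlap, and the fold was −0.80 ± 0.09 (adjusted p = 1.46e-07). On the all-gene scale it was the abundant member with no call, at 0.10 ± 0.11 (0.475). Rpl10 lies at chrX:74270812-74273135 on the plus strand and overlaps another annotated gene on that strand, and Rpl10-ps3, a row left out as a pseudogene, had 44.9 to 50.6 CPM in macrophage-like cells and 48.5 to 56.1 in B-like cells. Rpl7a, a large subunit protein, had 0.42%, 0.42% and 0.44% in B-like and 0.65%, 0.68% and 0.67% in macrophage-like cells, at −0.55 ± 0.09 (4.09e-05). Rpl7l1 and Rps19bp1, both low in all classes, were smaller parts in lymphocytes, at −0.98 ± 0.14 (5.27e-06) and −0.83 ± 0.15 (9.69e-05).

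**Figure D3:**
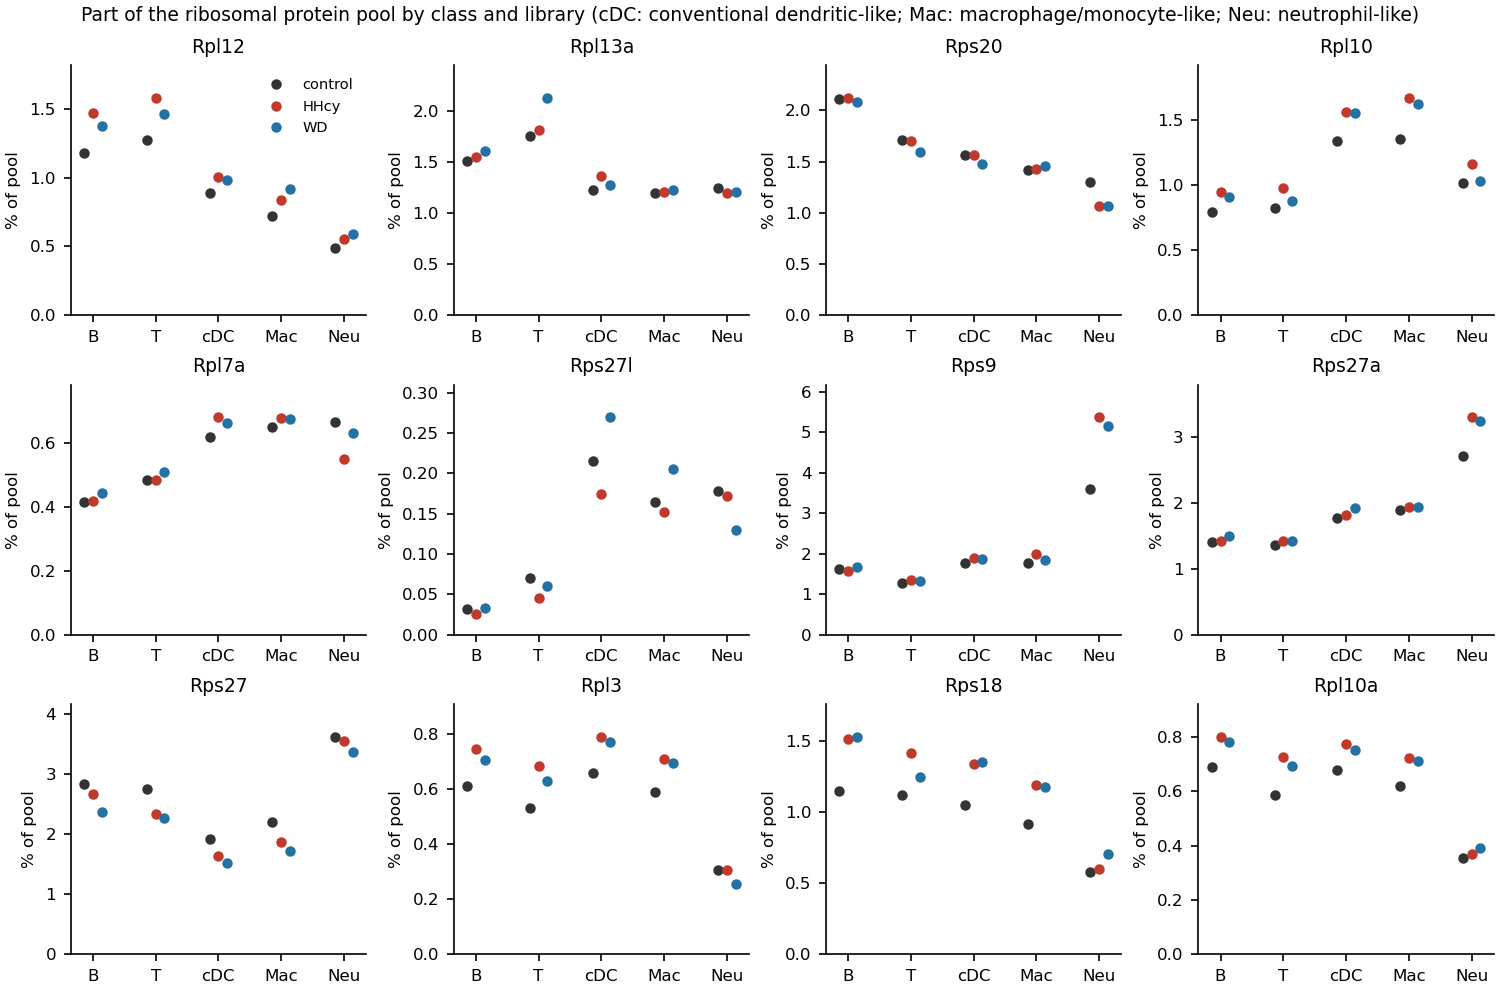
Each panel plots 1 member's percent of the ribosomal protein pool (vertical axis, from 0) in the 5 cell classes, 1 point per library. Rpl12 is highest in B-like and T-like cells and lowest in neutrophil-like cells, Rpl10 is higher in macrophage-like and dendritic-like cells, and Rps9 reaches 3.61% to 5.37% in neutrophil-like cells.

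By the mean over the 5 classes the largest members were Rps29, Rps24, Rps27, Rplp1 and Rps9, the last through neutrophil-like cells alone, and the smallest Rpl10l, Rpl39l, Rpl3l, Rps19bp1 and Rpl7l1. Neutrophil-like cells had the least even pool. In them 23 members made up 50% of it, against 27 to 29 in the other classes, and the 10 largest took 28.4% against 20.6% to 23.5%. Against lymphocytes, 30 members were smaller and 24 larger parts in neutrophil-like cells, where 70.5% of genes were called on this scale, 2.35% as higher and 68.2% as lower in lymphocytes. Against macrophage-like cells, 16 were larger and 30 smaller, where 58.5% were called, 51.4% as higher and 7.17% as lower. Without the library labelled HHcy these were 27 and 22, and 13 and 26. Without WD the calls against macrophage-like cells went down to 6 and 14, and with doublets kept to 4 and 5.

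Rps9, a small subunit protein near the mRNA entry site, was the largest member in neutrophil-like cells. It made up 3.61%, 5.37% and 5.15% of the pool there, from 1762, 5007 and 2460 UMIs. In macrophage-like cells it made up 1.77%, 1.99% and 1.83%, in B-like cells 1.62%, 1.57% and 1.67%, and in T-like cells 1.28%, 1.36% and 1.32%. All 3 neutrophil values lay above every other. The fold was 1.33 ± 0.12 (log2, SE; adjusted p = 2.44e-08) against macrophage-like cells, and lymphocytes were lower by 1.68 ± 0.10 (2.46e-11). On the all-gene scale Rps9 differed between neutrophil-like and macrophage-like cells by 0.12 ± 0.15 (0.537). In CPM it was at 1632, 2088 and 2044 in neutrophil-like and 2829, 3202 and 2785 in macrophage-like cells, so its direction turned with the scaling. Nearly every cell had it: 94.8%, 97.0% and 96.6% of neutrophil-like cells had a UMI of Rps9, and the Rps9 part was higher in the cluster led by S100a9 than in the one led by Camp in each library.

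Rps27a, which is made as a fusion with ubiquitin, made up 2.71%, 3.29% and 3.24% of the pool in neutrophil-like cells. It was at 1.89%, 1.94% and 1.93% in macrophage-like and 1.41%, 1.42% and 1.496% in B-like cells, without overlap. The fold was 0.68 ± 0.10 (adjusted p = 1.23e-05) against macrophage-like cells, and lymphocytes were lower by 1.11 ± 0.08 (9.70e-10). Rps27 and Rpl37, both with zinc-binding motifs, were larger parts in neutrophil-like than macrophage-like cells, by 0.87 ± 0.10 (4.86e-07) and 0.75 ± 0.10 (5.45e-06). Rps27 stood at 3.62%, 3.56% and 3.37% in neutrophil-like cells beside 2.21%, 1.87% and 1.71% in macrophage-like cells.

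Rpl3, the large subunit protein next to the peptidyl transferase centre, was the member furthest down in neutrophil-like against macrophage-like cells. It had 0.30%, 0.31% and 0.25% of the pool there, beside 0.59%, 0.71% and 0.69% in macrophage-like and 0.61%, 0.74% and 0.70% in B-like cells. Its fold in neutrophil-like against macrophage-like cells was −1.20 ± 0.12 (adjusted p = 1.35e-07). Rpl10a, a protein of the L1 stalk, followed at −0.88 ± 0.11 (1.19e-06), and Rps18, of the small subunit head, at −0.79 ± 0.11 (7.57e-06). Rps18 had 0.58%, 0.60% and 0.71% in neutrophil-like and 0.91%, 1.19% and 1.18% in macrophage-like cells. Rpl36al, Rps4x and Rpl12 were smaller parts by −0.73 to −0.60. With doublets kept, Rpl12 lost its call (adjusted p = 0.986), as did Rps18 (0.39), Rpl10a (0.0891), Rps4x (0.069) and Rps27a (0.118).

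In the edgeR fit with all libraries and doublets left out, T-like and B-like pools differed in fewer members. Of 85 members, 7 were a larger and 5 a smaller part in T-like cells, where 55.3% of genes were called on this scale, 50.1% as higher and 5.12% as lower. The 7 include Rpl39l, from only 2, 10 and 0 UMIs in T-like cells. The count of called members was 12 without the library labelled HHcy but 2 without control and 2 without WD. It was higher with DESeq2 and with doublets kept. With doublets kept it was above that of neutrophil-like against macrophage-like cells. Rps12, a small subunit protein, had 2.002%, 1.75% and 1.88% in T-like and 2.75%, 2.13% and 2.49% in B-like cells, at −0.39 ± 0.10 (adjusted p = 0.00471). Rps19, the gene altered in Diamond-Blackfan anaemia, had 1.37%, 1.46% and 1.34% in T-like and 1.75%, 1.84% and 1.77% in B-like cells, at −0.36 ± 0.11 (0.00818). Ranges did not overlap for either gene. Both lost the call without control (0.0684 and 0.0635) and without WD (0.0837 and 0.101). Rpl27 had 1.11%, 1.04% and 1.23% in T-like and 0.84%, 0.86% and 0.88% in B-like cells, at 0.38 ± 0.10 (0.00464). Its call too was lost without control (0.0584) and without WD (0.113).

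Among the minor copies, Rps27l, a p53 target, had 1.11, 0.98 and 1.42 UMIs per 100 of Rps27 in B-like cells. It had 7.46, 8.11 and 11.97 in macrophage-like and 11.2, 10.7 and 17.8 in conventional dendritic-like cells. As a part of the pool it was lower in lymphocytes than in macrophage-like cells, at −2.04 ± 0.13 (log2, SE; adjusted p = 1.87e-10), and higher in T-like than B-like cells, at 0.94 ± 0.17 (0.000175). It was also called lower on the all-gene scale, at −1.15 ± 0.14 (2.51e-06). In neutrophil-like cells it had 4.91, 4.82 and 3.86 UMIs per 100 of Rps27, but its level of 80.6, 66.7 and 51.5 CPM was the lowest of the 5 classes, below 105, 88.2 and 107 in B-like cells. On the all-gene scale its difference between lymphocytes and neutrophil-like cells was 0.14 ± 0.17 (0.480). Its highest level was in the dendritic-like cluster led by Fscn1, at 1067, 654 and 962 CPM, against 308 to 442 in the clusters led by Cd209a and Xcr1. Rps27rt, a near-identical copy of Rps27, stayed between 2.202 and 3.42 per 100 of Rps27 in every class and library. Counts of such copies are uncertain, since reads can be split between them, and 294 annotated pseudogenes carry Rps or Rpl names.

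Rpl36al, a copy of Rpl36a that lies on another chromosome, had 37.7, 40.9 and 43.4 UMIs per 100 of Rpl36a in B-like cells. It had 56.7, 51.4 and 73.5 in T-like and 83.0, 88.9 and 91.7 in macrophage-like cells, without overlap between these 3 classes. Within the pool it was called higher in T-like than in B-like cells, at 0.42 ± 0.13 (adjusted p = 0.014), a call lost without control (0.0585) and without WD (0.165). Rpl22l1 had 27.1, 31.5 and 30.5 per 100 of Rpl22 in B-like cells, 28.3, 31.7 and 33.4 in macrophage-like and 47.2, 34.2 and 58.3 in neutrophil-like cells. Rpl39l, best known from the testis, had 0 to 31 UMIs in a class and library, too few to compare. It is nevertheless in the counts of members called in T-like against B-like cells and in lymphocytes against neutrophil-like cells. Neutrophil-like cells had 1, 6 and 0 of its UMIs.

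Rpl3l was read almost only in myeloid cells. It had 236, 71 and 194 UMIs in macrophage-like cells and 14, 25 and 16 in neutrophil-like cells. It had 5, 4 and 4 in B-like cells, 0 in T-like cells of each library, and 12, 5 and 15 in conventional dendritic-like cells. In CPM it stood at 12.8, 5.81 and 6.51 in macrophage-like and 12.97, 10.4 and 13.3 in neutrophil-like cells. Against B-like cells, macrophage-like cells were higher 47.0-fold (counting interval 19.8 to 146), 40.7-fold (15.2 to 154) and 15.7-fold (6.03 to 58.2). Against T-like cells, where a count of 0 allows up to 3 per library, they were at least 3.35-fold, 2.43-fold and 1.505-fold higher. Rpl3 was the far more abundant gene of the pair: there were 1.36, 0.51 and 0.62 Rpl3l UMIs per 100 of Rpl3 in macrophage-like and 9.40, 8.74 and 13.2 in neutrophil-like cells.

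Within macrophage-like cells, most Rpl3l UMIs of each library lay in 1 monocyte cluster. The cluster led by Ace, a gene of non-classical monocytes, had 41.0, 21.3 and 31.4 CPM from 204, 51 and 120 UMIs. The cluster led by Ccl4, with C1qa and C1qb among its leading genes, came next. It had 9.14, 9.11 and 13.4 CPM from 12, 8 and 37 UMIs. The cluster led by Ly6c2 had 4.96, 3.71 and 6.00, and the one led by Cd163 had 0 UMIs in each library. Rpl3l lies at chr17:24727820-24736143 on the plus strand, and Msrb1, a methionine sulfoxide reductase, starts 499 bases after its end on the same strand. Msrb1 was at 1292, 1961 and 1980 CPM in neutrophil-like, 458, 485 and 419 in macrophage-like and 24.5, 23.8 and 28.1 in B-like cells. It was at 903, 971 and 1101 in the Ace-led cluster and at 882, 913 and 1093 in the Ly6c2-led one, which had similar Msrb1 and several-fold less Rpl3l. Over 56 points of 19 clusters and 3 libraries, which share cells' libraries and depth, Spearman's rho between both genes was 0.78. Whether any Rpl3l UMIs are Msrb1 transcripts was not tested.

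**Figure D4:**
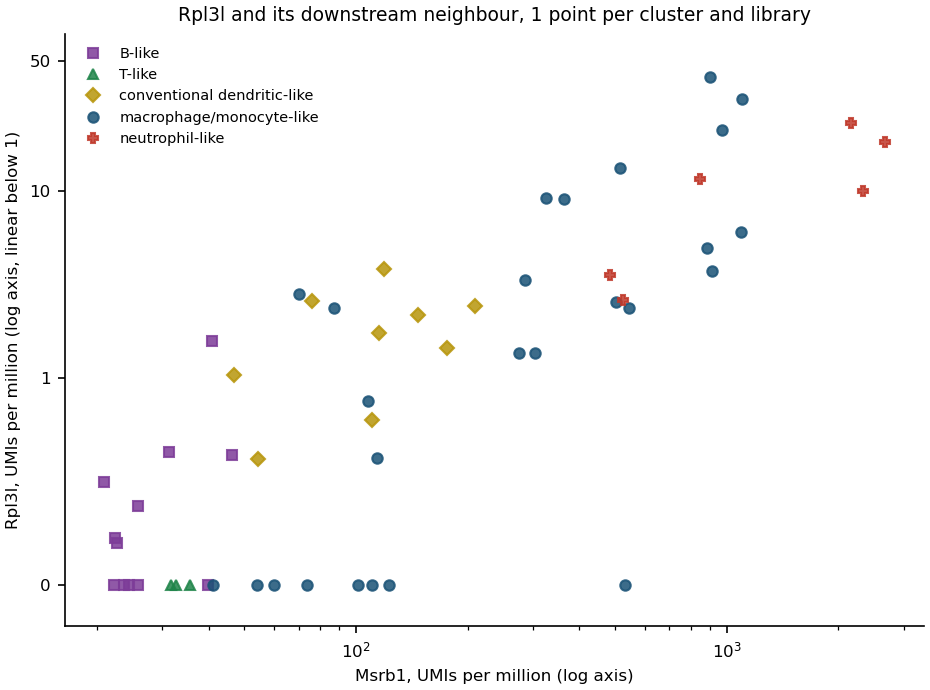
Each point is 1 cluster in 1 library, with the level of Msrb1 (horizontal log axis) against that of Rpl3l (vertical axis, log above 1 and linear below), both in CPM. The Ace-led monocyte cluster is highest for Rpl3l, at 21.3 to 41.0, and the Cd163-led cluster lies at 0.

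The balance of the subunits was almost constant. Small subunit genes made up 46.6% ± 0.20 of the pool in B-like, 45.0% ± 0.60 in T-like, 45.5% ± 0.14 in conventional dendritic-like, 45.4% ± 0.21 in macrophage-like and 47.5% ± 1.22 in neutrophil-like cells (SD, n = 3). The 3 stalk genes Rplp0, Rplp1 and Rplp2 made up 4.35% ± 0.17 in neutrophil-like cells and between 4.95% and 5.58% on average in the other classes. These numbers count captured 3′ ends, 1 per mRNA molecule whatever its length.

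Between libraries, the share of ribosomal protein UMIs within a class moved little, and with 1 library per group no test was possible. Both contrasts use the same control library. In B-like cells the log2 ratio of shares to control was 0.01 for HHcy as labelled and −0.08 for WD, the former going up to 0.16 in cells of 3000 to 8000 UMIs. In macrophage-like cells it was 0.01 and −0.07, and in conventional dendritic-like cells −0.04 and −0.14. T-like cells were at 0.22 (counting interval 0.22 to 0.23) in the library labelled HHcy and −0.09 in WD. The former went down to 0.15 with doublets kept and to 0.09 at Leiden resolution 2. Neutrophil-like cells were at −0.22 and −0.19. The neutrophil ratios turned positive with doublets kept, to 0.47 and 0.36. Over all cells used, the share was 23.8%, 25.7% and 19.0%, where the number of B-like cells was 2152, 3590 and 1213 and that of macrophage-like cells 2042, 1247 and 2692.

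Within the pool, a member was counted as past the fold at a log2 ratio of 0.5 or more in size with 100 or more UMIs over both libraries. In the library labelled HHcy 12 class values passed and in WD 2, out of 80 to 84 members per class, and 8 of the 12 were in neutrophil-like cells, where 30.3% of all genes passed. In B-like cells, where 13.1% passed, it was Rps28 at −0.52 (counting interval −0.53 to −0.51). In T-like cells, where 884 of 2944 genes passed (30%), it was Rplp0 at 0.54 (0.45 to 0.62) and Rps27l at −0.60 (−0.95 to −0.26). In macrophage-like cells, where 7.25% passed, it was Rpl3l at −1.15 (−1.55 to −0.76). In neutrophil-like cells Rplp0 was at 0.61 (0.44 to 0.78) and Rps9 at 0.58 (0.50 to 0.65), and Rpl36al at −0.71, Rpl36 at −0.68 and Rpl38 at −0.59 were furthest below. The 2 values in WD were those of Rpl3l and Rps9. Rpl3l was at −0.90 (−1.18 to −0.62) in macrophage-like cells, where 8.76% of genes passed. Rps9 was at 0.52 (0.43 to 0.60) in neutrophil-like cells, where 23.7% passed. Most Rpl3l UMIs of macrophage-like cells lay in the Ace-led monocyte cluster. That cluster held 637, 281 and 498 of the 2042, 1247 and 2692 macrophage-like cells. Within it Rpl3l made up 0.0238%, 0.0116% and 0.0188% of the pool. The part of this cell mix in the 2 Rpl3l ratios was not tested. No member passed in conventional dendritic-like cells of either library (13.5% and 15.1% of genes), nor in B-like (5.89%) or T-like (15.0%) cells of WD.

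Within the pool, members with a short coding sequence tended to make up a smaller part, and those with a long one a larger part, in both other libraries than in control. Rps28, with 207 coding bases, made up 1.54%, 1.07% and 1.14% of the pool in B-like and 1.75%, 1.29% and 1.30% in macrophage-like cells. It was below control in all 5 classes, by −0.52 to −0.39 in the library labelled HHcy and by −0.45 to −0.39 in WD. Rplp0, with 951 coding bases, made up 0.92%, 1.06% and 1.06% in B-like and 0.93%, 1.19% and 1.09% in macrophage-like cells. It was above control in all 5 classes, by 0.21 to 0.61 and by 0.21 to 0.40. Across 83 members in B-like cells, the 20 shortest had a median log2 ratio of −0.24 in the library labelled HHcy and the 20 longest one of 0.18. In WD these were −0.16 and 0.15.

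Spearman's rho between log2 ratio and coding length was 0.68, 0.76, 0.70, 0.55 and 0.80 in B-like, T-like, macrophage-like, neutrophil-like and conventional dendritic-like cells of the library labelled HHcy. In WD it was 0.72, 0.65, 0.56, 0.36 and 0.68. Both sets of ratios share the control values, and genes are not independent replicates. Set against each other, without control, the library labelled HHcy and WD gave 0.32, 0.49, 0.41, 0.45 and 0.38. On class totals the order was less uniform. In B-like cells of the library labelled HHcy the median ratio of other genes was −0.04 up to 450 coding bases, 0.02 beyond that up to 900 and −0.03 above, where members had −0.14, 0.16 and 0.21. In WD other genes had 0.06, 0.08 and 0.01, and members −0.11, 0.05 and 0.13. In neutrophil-like cells the members' median was below control in every length group, at −0.33, −0.08 and −0.08 in the library labelled HHcy and at −0.26, −0.09 and −0.31 in WD, where other genes had −0.14, −0.03 and −0.19, and −0.08, 0.04 and −0.0035. The group above 900 bases held 3 or 4 members. Library preparation and treatment cannot be told apart with 1 library per group.

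**Figure D5:**
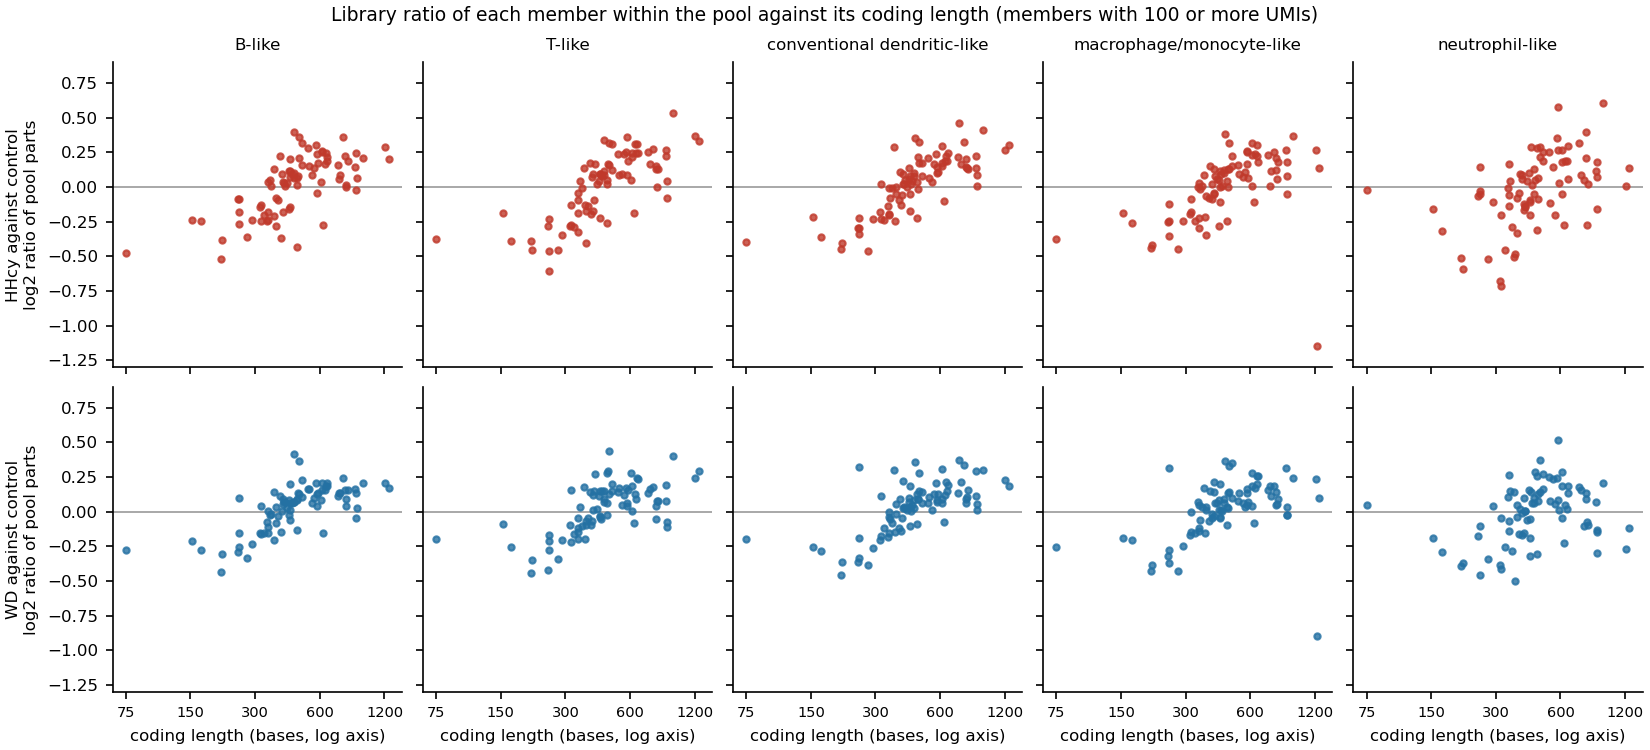
Each panel plots the members' log2 ratio of pool parts to control (vertical axis) against coding length (horizontal log axis, bases) in 1 cell class, with the library labelled HHcy above and WD below, for members with 100 or more UMIs. Short members lie mostly below 0 and long ones above, as in B-like cells, where the medians of the 20 shortest and 20 longest are −0.24 and 0.18.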

How the data were processed

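UMI counts per gene and called cell barcode, raw and not normalized, were deposited by the authors for 3 libraries. Cell Ranger 2.2.0 and mm10 are named in the submitters' processing notes, while Cell Ranger 4.0.0 is named per the file headers. How reads that match several gene copies were counted is not given in the sources used here.

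Barcodes with 200 or more genes and at most 10% mitochondrial UMIs were kept. Those carrying markers of 2 lineages (6 to 8 detected, limits set after seeing the data) were left out as doublets. Cells were clustered in scanpy 1.11.5 (2000 variable genes without ribosomal protein genes, 30 principal components, Leiden resolution 1) and clusters named from marker lists, with score limits set after seeing the data. Class sums were tested in edgeR 4.0.16 with the library as a block (8 residual degrees of freedom), Benjamini-Hochberg adjustment over 12866 genes and a threshold of 0.05, once with TMM factors and once scaled to the members' UMIs. The fit was tested on simulated data. The text names members from among the 6 furthest up and down per contrast, but not all of them. It also names the minor copies, the largest members and, per class and library, the 3 past the fold in each direction. The members and lists were chosen with earlier results of these data known, and the run rule for promoters after seeing the data. Gene positions and coding lengths are from GENCODE M21, promoters from RefSeq. Alternatives changed the scaling, tool (DESeq2 1.42.0), filters, doublets, naming, depth, clustering and libraries. Total counts of 66789257, 105180370 and 93164076 UMIs limit precision.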

Additional observations from a re-analysis of the deposited data

How the results depend on the processing

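No paired analysis was possible because each group is 1 library and the groups share only the number 1; the library is the block in the class tests. Without 1 library at a time, called members ranged from 77 to 81 (lymphocytes against macrophages), 81 to 83 (lymphocytes against neutrophils), 79 to 83 (neutrophils against macrophages) and 69 to 81 (T against B) on the all-gene scale. Within the pool they ranged from 20 to 30, 40 to 49, 20 to 39 and 2 to 12, where the calls with all libraries were 36, 54, 46 and 12. Of 47 named calls within the pool, 30 held under every alternative run and none turned; of 691 values, 644 kept direction and threshold. Of all 47 named calls, 44 held without the library labelled HHcy, 38 without WD and 37 without control. With doublets kept, neutrophils against macrophages gave 54 calls on the all-gene scale, 9 within the pool, and naming each cell by its own markers gave 21. T against B within the pool gave 7 with no filter, 37 with DESeq2, 35 with doublets kept, 20 with own markers, 21 at Leiden resolution 2 and 3 in cells of 3000 to 8000 UMIs, a window chosen after seeing the data.

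Shares also moved. B-like cells were at 31.4% when thinned to 1000 UMIs or averaged per cell and 29.8% in the window. Macrophage-like cells were at 15.2% with 20% mitochondrial UMIs allowed, 17.4% with doublets, 14.5% thinned or averaged per cell and 13.9% in the window. Neutrophil-like cells were at 12.04% with doublets, 6.31% with own markers, 3.76% thinned, 3.77% averaged per cell and 3.41% in the window, and conventional dendritic-like cells at 16.6% in the window. Classes above control in the library labelled HHcy went from 3 to 5 with doublets kept, and in WD from 0 to 1 with doublets or own markers.

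The log2 share ratio of the library labelled HHcy turned to −0.0159 in B-like cells without the Vpreb3-led cluster. There it was 0.0607 thinned, 0.0614 averaged per cell and 0.1602 in the window. The ratio turned to −0.0043 and −0.0917 in macrophage-like cells with own markers and in the window, and to 0.0059 and 0.0109 in conventional dendritic-like cells with doublets and own markers. In neutrophil-like cells it turned to 0.47, 0.0978 and 0.0597 with doublets, own markers and the window, and that of WD to 0.36 and 0.30 with doublets and own markers. Values past the fold in the library labelled HHcy went from 12 to 7 with own markers. Those in WD went from 2 to 1 with 20% mitochondrial UMIs or doublets, 6 with own markers, 9 thinned, 7 in the window and 10 without the Camp-led cluster, which was also left out after seeing the data. Minor copies within the pool turned for Rpl22l1 (0.39, lymphocytes against neutrophils, without the Camp-led cluster), Rpl36al (−0.16, the same contrast, doublets kept), Rpl7l1 (−0.11, neutrophils against macrophages, doublets kept) and Rpl3l (3.18, T against B, doublets kept). The cause of these shifts was not tested. Depth limits Rpl39l, Rpl3l in lymphocytes and most neutrophil members.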
